A study of Mus musculus with 2 samples.

Results

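The genes described here were 10 members of the gp130 cytokine system, taken by their symbols from the 25810 genes listed for both libraries. They were the ligands Lif, Osm, Il6 and Clcf1, the receptor chains Lifr, Osmr, Il6ra and Il11ra1, the shared receptor chain Il6st, and the kinase Jak1. Each symbol occurred once in each file, and all 10 genes reached 1 RPM (the reads of a gene scaled to the mapped reads of its library) in one library or both, the level from which a gene is called measured. The study compared mammary epithelial cells (MECs) of wild type (WT) mice with those of Igfbp7-/- mice, which lack the first coding exon of Igfbp7 in all tissues, by RNA sequencing during lactation. Both groups were inguinal glands on lactation day 3, with 1 library per genotype, and the number of animals behind each library is not given in the sources used here. The labels give C57BL/6 as the background of both, whereas the methods say that the knockout was made on CD1. Cells carrying lineage markers were removed from both with magnetic beads. CD45 (leukocytes) and Ter119 (erythroid cells) are named throughout, with CD31 (endothelium) in the methods and CD35 in the labels.

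gp130, the product of Il6st, is the signalling chain that the cytokines of this family share. A ligand is bound by gp130 together with a further chain (IL-6Rα for IL-6, IL-11Rα for IL-11, LIFR for LIF and OSMR for OSM). JAK kinases bound to gp130 then phosphorylate STAT3. In the mammary gland, LIF is known as the activator of STAT3 at the start of involution after weaning, and OSM with its receptor as a signal that sustains STAT3 activity later in that process.

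The libraries held 34327854 mapped reads for WT and 35016847 for Igfbp7-/-, so that 3 reads, the amount taken as detectable, were worth 0.0874 and 0.0857 RPM. All members lay above that level in both. Reads on Igfbp7, the targeted gene, numbered 5224 in WT and 37 in Igfbp7-/-. With 1 library per genotype no difference has a replicate check and no p-value is given. Each difference is the log2 ratio of Igfbp7-/- to WT after 0.1 RPM was added to both values, and its 95% Clopper-Pearson interval was computed on read pairs and covers counting error only. The markers of cell types differed as well. Leukocyte markers were lower in Igfbp7-/- by at least 1.5 times for 9 of 11 genes (summed level 751.9 RPM in WT and 177.3 RPM in Igfbp7-/-), endothelial markers for 5 of 6 (1159 and 366.6 RPM), fibroblast markers for 4 of 6 (9060 and 4582 RPM), adipocyte markers for 3 of 4 measured (562.0 and 192.3 RPM) and myoepithelial markers for 6 of 7 (3085 and 976.5 RPM). The remaining measured adipocyte marker, Lep, was higher (8.04 and 16.8 RPM, log2 ratio 1.06, interval 0.77 to 1.37). The 3 erythroid genes measured of 5 differed by less than 1.5 times (888.8 and 998.1 RPM). Of 6 luminal markers, 3 were higher (Krt8, Krt18 and Krt19), Epcam and Cdh1 were within 1.5 times (0.51 and 0.38 on the log2 scale) and so was Elf5, with a value below 0 (-0.52). All 8 milk protein genes were lower, with a summed level of 139407 RPM in WT and 52852 RPM in Igfbp7-/-. No marker in the leukocyte, endothelial, fibroblast, adipocyte or myoepithelial lists was at 0 reads in either library, although leukocytes and, per the methods, endothelium were targets of the depletion. In such bulk RNA, fewer cells of a type and less RNA per cell cannot be told apart.

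Of the 10 members, 2 were higher in Igfbp7-/- by at least 1.5 times (Lif and Il6ra), 4 were lower (Il6, Osmr, Il11ra1 and Osm) and 4 differed by less (Il6st, Jak1, Lifr and Clcf1). With the libraries scaled to the keratins Krt8 and Krt18 instead of all mapped reads, all 10 were lower, as were 95.5% of all genes. On the scale of all mapped reads, 21.4% of the 14026 genes that reached 1 RPM in either library were higher and 23.0% were lower by the same rule. The share of members that were higher was thus near that of all genes. The share that were lower, 4 of 10, was above that of all genes, but the interval of Osm (-1.45 to 0.03) included no difference. The median log2 ratio of the members was -0.42, beside 0.03 over all genes. Ligand and receptor went apart for IL-6 and for LIF: Il6 was lower while Il6ra was higher, and Lif was higher while Lifr was not.

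**Figure D1:**
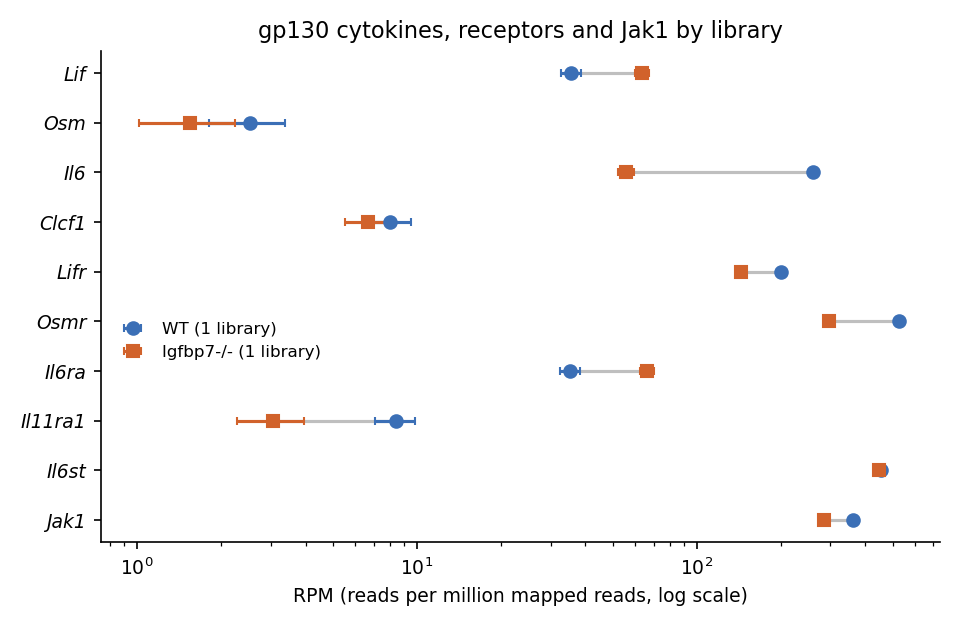
RPM of the 10 members in the WT library (circles) and the Igfbp7-/- library (squares) on a log axis, with exact 95% Poisson intervals on read pairs as bars and grey lines joining the libraries. Il6 shows the widest gap, from 260.0 RPM in WT to 55.9 RPM in Igfbp7-/-, while the points of Il6st lie on top of each other.

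Among the ligands, Il6, an inflammatory cytokine that fibroblasts, endothelium, macrophages and epithelium can make, differed most. It had 8924 reads in WT (260.0 RPM) and 1957 reads in Igfbp7-/- (55.9 RPM), a log2 ratio of -2.22 (interval -2.32 to -2.12), or 4.65 times lower. In WT it was the gene with rank 412 among all genes by RPM, and in Igfbp7-/- it had rank 2512. Its ratio stood at percentile 3.04 of the 14026 genes. Il6 was thus an abundant transcript in the WT cells and remained well detected in the Igfbp7-/- cells. The sums of the leukocyte, endothelial, myoepithelial and fibroblast markers differed in the same direction, by -2.08, -1.66, -1.66 and -0.98 on the log2 scale, whereas the luminal epithelial sum differed in the opposite direction, by 1.18. Their leading genes included Cd74 (526.6 RPM in WT and 69.7 RPM in Igfbp7-/-), Cdh5 (583.7 and 183.5 RPM) and Acta2 (1052 and 226.7 RPM), and their part in the difference of Il6 was not tested.

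Lif, the ligand that activates STAT3 when milk removal stops, went in the opposite direction. It had 1221 reads in WT (35.6 RPM) and 2231 reads in Igfbp7-/- (63.7 RPM), a log2 ratio of 0.84 (interval 0.70 to 0.99) and a ratio of 1.79. The libraries were therefore separated beyond counting error for both ligands, with opposite signs on the scale of all mapped reads. In WT the length-scaled level of Il6 was 27.0 times that of Lif (95% interval 24.8 to 29.5), and in Igfbp7-/- it was 3.24 times that of Lif (2.97 to 3.53). This proportion is formed within a library and does not depend on how the libraries were scaled to each other.

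The promoters of these ligands are shown because Il6 and Lif were the ligands with over 10 RPM and differed in opposite directions. Each line gives the 250 bases before the annotated start site from RefSeq on build GRCm38.p6, on the transcript strand, at chr5:30012864-30013113 for Il6 and chr11:4257318-4257567 for Lif. Capitals mark matches, on either strand, to letters typical of 4 kinds of site: GGGNNTTTCC (NF-kappaB), TTGNNCAA (C/EBP), TGANTCA (AP-1) and TGACGT (the CRE half-site).
Il6: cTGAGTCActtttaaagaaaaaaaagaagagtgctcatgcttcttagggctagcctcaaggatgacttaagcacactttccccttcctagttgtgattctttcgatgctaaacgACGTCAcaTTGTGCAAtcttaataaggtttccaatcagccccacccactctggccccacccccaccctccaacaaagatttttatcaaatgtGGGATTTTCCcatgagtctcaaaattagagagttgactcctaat
Lif: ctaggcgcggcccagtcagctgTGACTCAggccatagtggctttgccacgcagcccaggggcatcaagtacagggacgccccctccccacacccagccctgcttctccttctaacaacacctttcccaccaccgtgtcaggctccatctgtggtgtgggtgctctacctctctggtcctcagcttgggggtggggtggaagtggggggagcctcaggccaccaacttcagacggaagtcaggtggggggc
The Il6 window held 1 match to each of the 4 patterns, and none of these matches overlapped another. The NF-kappaB letters lay from -44 to -35 relative to the start, the C/EBP letters from -128 to -121, the CRE half-site from -136 to -131 and the AP-1 letters from -249 to -243. The Lif window held 1 match, to the AP-1 letters, from -228 to -222. Among 32851 promoter windows of the same length, 1.41% held the NF-kappaB letters, 5.65% the C/EBP letters, 6.75% the AP-1 letters and 6.47% the CRE half-site. The letters TTCNNNGAA of STAT sites, present in 7.02% of windows, had no match in the windows of the 8 members that the promoter table holds. A match describes letters only and says nothing of whether a factor was bound in these cells.

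The remaining ligands were weakly expressed. Osm, a cytokine made mainly by macrophages, neutrophils and T cells, had 87 reads in WT (2.53 RPM) and 54 reads in Igfbp7-/- (1.54 RPM). Its log2 ratio of -0.68 passed 1.5 times, but the interval of -1.45 to 0.03 included no difference, so a change in Osm was not detectable at this depth. Clcf1, which encodes a ligand of the CNTF receptor, had 276 reads in WT (8.04 RPM) and 234 reads in Igfbp7-/- (6.68 RPM), with a log2 ratio of -0.26 (interval -0.63 to 0.10). Neither ligand separated the libraries beyond counting error. Of the 11 leukocyte markers, 9 were lower in Igfbp7-/- by at least 1.5 times, and the other 2, Itgam and S100a8, differed by less. Csf1r had 583 and 329 reads, Cd68 1504 and 615 reads and S100a9 397 and 169 reads in WT and Igfbp7-/-. Lyz2 had 2298 and 843 reads and Emr1 289 and 102 reads. Itgam had 164 and 220 reads (log2 ratio 0.39, interval -0.03 to 0.83) and S100a8 595 and 742 reads (0.29, 0.07 to 0.52). The part of such cells in the level of Osm was not tested.

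**Figure D2:**
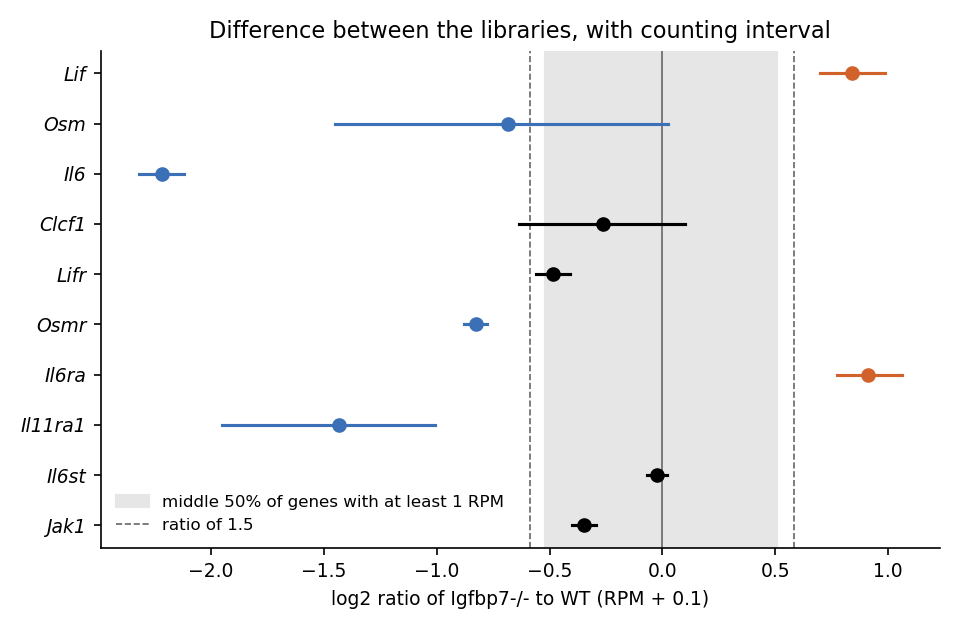
Log2 ratio of Igfbp7-/- to WT for each member (point) with its 95% Clopper-Pearson interval on read pairs (line). Dashed lines mark a ratio of 1.5 in either direction and the grey band the middle 50% of all measured genes. Lif and Il6ra lie right of the band at 0.84 and 0.91 (but at -1.08 and -1.003 when scaled to Krt8 and Krt18), and Il6 lies farthest left at -2.22.

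Among the receptor chains, Osmr, which pairs with gp130 to bind OSM, was the most abundant member by RPM in WT. It had 18119 reads there (527.8 RPM, rank 150 of all genes) and 10413 reads in Igfbp7-/- (297.4 RPM, rank 299). Its log2 ratio was -0.83 (interval -0.88 to -0.78), or 1.77 times lower. Lifr, the LIF-binding chain, had 6885 reads in WT (200.6 RPM) and 5018 reads in Igfbp7-/- (143.3 RPM), with a log2 ratio of -0.48 (-0.56 to -0.41). Lifr was lower beyond counting error but by less than 1.5 times. Both genes lie on chromosome 15 of the NCBIM37 (mm9) build, Osmr on the minus strand from 6763577 to 6824313 and Lifr on the plus strand from 7079559 to 7147489.

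Il6ra, the chain that binds IL-6, showed the highest ratio of all members. It had 1209 reads in WT (35.2 RPM) and 2326 reads in Igfbp7-/- (66.4 RPM), a log2 ratio of 0.91 (interval 0.77 to 1.06) and a ratio of 1.88. Il11ra1, the chain that binds IL-11, had 289 reads in WT (8.42 RPM) and 107 reads in Igfbp7-/- (3.06 RPM), a log2 ratio of -1.43 (-1.95 to -1.01), or 2.70 times lower. These cytokine-specific chains, which both work with gp130, thus differed in opposite directions, each beyond counting error. Il11ra1 has a close copy, Il11ra2, with 0 reads in WT and 1 read in Igfbp7-/-, and how reads that fit both were assigned is not given in the sources used here. Annotated genes also overlap Il11ra1 on both strands (for example Galt on the same strand, and Ccl27a on the other), so its count is uncertain where reads could not be told apart. Fibroblasts are a known source of Il11ra1, and of the fibroblast markers Col3a1 had 4670 RPM in WT and 1950 RPM in Igfbp7-/- while Pdgfra had 97.0 and 132.8 RPM, and the part of such cells was not tested.

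Il6st, the shared chain, had nearly the same level in both libraries. It had 15655 reads in WT (456.0 RPM) and 15703 reads in Igfbp7-/- (448.4 RPM), a log2 ratio of -0.02 (interval -0.07 to 0.02) that included no difference. With the libraries scaled to the reads on protein-coding genes its ratio was 0.19, beside -0.06 for Clcf1 and -0.14 for Jak1. Jak1, the kinase bound to gp130, had 12386 reads in WT (360.8 RPM) and 9936 reads in Igfbp7-/- (283.7 RPM), a log2 ratio of -0.35 (-0.40 to -0.29). Both genes were therefore within 1.5 times, and which member was the most even depended on the scaling.

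Per kilobase of gene length (RPKM), the order of the members differed between the libraries. In WT, Il6 stood first with 239.2 RPKM, ahead of Osmr (109.2), Il6st (83.6), Jak1 (68.1) and Lifr (20.8), and the counting intervals of these 5 did not overlap. Il6ra (10.5), Clcf1 (9.83) and Lif (8.86) followed, with intervals that overlapped between neighbours, and Il11ra1 (4.56) and Osm (1.33) were last. In Igfbp7-/-, Il6st stood first with 82.3 RPKM, ahead of Osmr (61.5). Jak1 (53.5) and Il6 (51.4) were not separated from each other there, nor were Lif (15.9) and Lifr (14.8), while Il6ra (19.9) lay above both. Clcf1 (8.17), Il11ra1 (1.65) and Osm (0.81) came last in that library. Il6 thus moved from first place to one behind Il6st and Osmr. The level of Clcf1 rests on a length of 818 bases used by the authors, against 3550 bases for its longest annotated transcript, on which it would be 2.26 and 1.88 RPM per kilobase.

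The proportions between receptor chains were compared within each library, since these do not depend on the scaling between libraries. Osmr had 1.31 times the RPKM of Il6st in WT (95% interval 1.27 to 1.35) and 0.75 times in Igfbp7-/- (0.72 to 0.77), so the transcripts of Osmr exceeded those of gp130 in WT and not in Igfbp7-/-. The proportion of Lifr to Il6st was 0.248 in WT (0.238 to 0.258) and 0.180 in Igfbp7-/- (0.172 to 0.189). That of Il6ra to Il6st was 0.126 (0.116 to 0.137) and 0.242 (0.227 to 0.257). Il6ra therefore made up a larger, and Osmr and Lifr a smaller, amount relative to the shared chain in Igfbp7-/-. The change was 1.92 times for Il6ra (Wald interval on read pairs 1.73 to 2.13), whereas Osmr relative to Il6st was 1.75 times lower (1.67 to 1.83), Lifr 1.38 times lower (1.30 to 1.46) and Il11ra1 2.71 times lower (1.97 to 3.72).

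The balance of ligand to receptor transcripts changed most for IL-6. In WT, Il6 had 22.7 times the RPKM of Il6ra (20.9 to 24.8), and in Igfbp7-/- 2.59 times (2.37 to 2.82), which was 8.77 times less (7.78 to 9.89). Lif had 0.427 times the RPKM of Lifr in WT (0.391 to 0.465) and 1.07 times in Igfbp7-/- (0.996 to 1.15). The LIF ligand therefore went from well below its receptor to a level not separated from it. For Osm and Osmr the proportion was 0.0122 in WT (0.0087 to 0.0162) and 0.0131 in Igfbp7-/- (0.0087 to 0.0192), and these intervals overlapped.

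**Figure D3:**
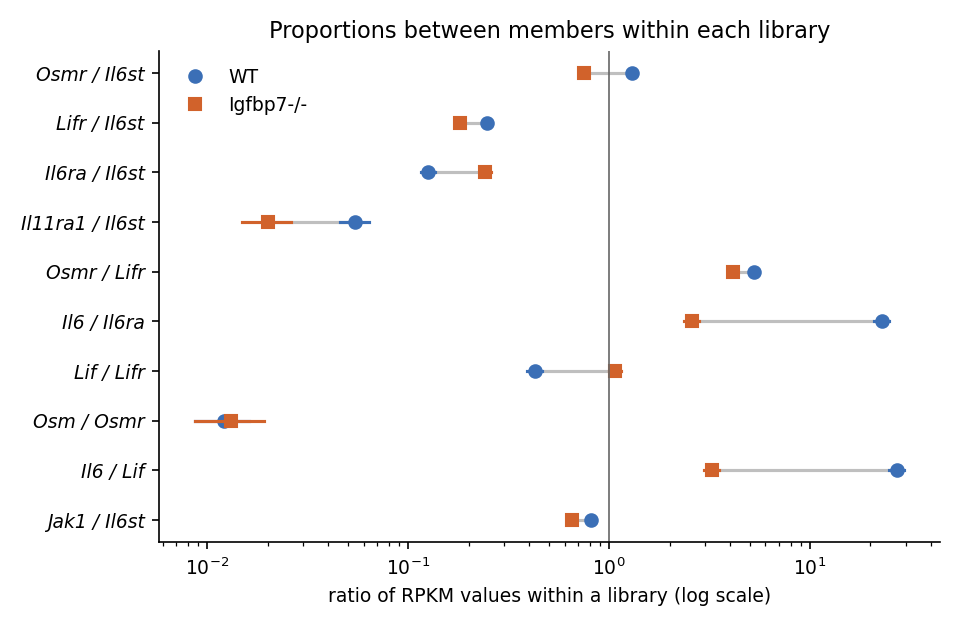
Ratio of the RPKM of 2 members within a library on a log axis, for WT (circles) and Igfbp7-/- (squares), with 95% intervals on read pairs as lines and equality marked by the vertical line at 1. Osmr relative to Il6st crosses 1, from 1.31 in WT to 0.75 in Igfbp7-/-, and Il6 relative to Il6ra falls from 22.7 to 2.59.

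Outside the 10 members, 54 of 60 listed genes of the same pathway were measured, of which 19 were higher and 10 lower in Igfbp7-/- by at least 1.5 times, beside 21.4% higher and 23.0% lower over all genes. Of these, 12 of the higher and 3 of the lower genes came from the 25 measured STAT3 targets or acute phase genes described below. Scaled to Krt8 and Krt18, 1 pathway gene was higher and 50 were lower, beside 0.67% higher and 95.5% lower over all genes. Among the other ligands, 5 of 8 were measured, all below 10 RPM. Il11 was higher (54 reads in WT, 104 in Igfbp7-/-, log2 ratio 0.88, interval 0.22 to 1.64), and Cntf, Il27 and Ebi3 were lower, all named after their values were seen. Ebi3 and Il27 encode the subunits of the cytokine IL-27 and are made mainly by macrophages and dendritic cells, and they had 114 and 67 reads in WT and 16 and 12 reads in Igfbp7-/-. Among the other receptor chains, Cntfr had 28 reads in WT and 54 in Igfbp7-/- and Il27ra had 64 and 36, both past 1.5 times with intervals that included no difference. Weakly expressed family members thus went both ways.

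Of the kinases and adaptors, Tyk2, a kinase of the JAK family, was higher (11.6 and 23.5 RPM; 1.01, 0.77 to 1.27), and so was the adaptor Gab2 (67.9 and 106.9 RPM; 0.65, 0.55 to 0.76). Gab1, the related adaptor, lay just under 1.5 times (125.7 and 187.7 RPM; 0.58, 0.50 to 0.66). Stat3, the main factor of this pathway, had 426.9 RPM in WT and 470.6 RPM in Igfbp7-/- (0.14, 0.09 to 0.19). Transcripts of the core of the pathway, Il6st, Jak1 and Stat3, were thus all within 1.5 times. The median over the 10 measured genes of this list that are no member was 0.25.

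Of 7 inhibitors, the phosphatase gene Ptpn2 was higher (45.5 and 71.9 RPM; log2 ratio 0.66, interval 0.53 to 0.79), and Socs1 and Ptpn6, both below 10 RPM and named after their values were seen, were lower (-1.25, -2.05 to -0.59, and -0.98, -1.61 to -0.47). Socs3, the feedback inhibitor that binds gp130 and is induced by STAT3, had 126.5 RPM in WT and 113.8 RPM in Igfbp7-/- (-0.15, -0.24 to -0.07). Pias1 (27.1 and 37.6 RPM; 0.47) and Ptpn1 (84.7 and 74.7 RPM; -0.18) also differed by less than 1.5 times. The genes that release soluble receptor chains were level or higher. The proteases Adam10 (65.3 and 69.7 RPM; 0.09) and Adam17 (74.7 and 89.7 RPM; 0.26) stayed within 1.5 times. Rhbdf1 (36.0 and 84.9 RPM; 1.23, 1.10 to 1.37) and Rhbdf2 (70.1 and 113.6 RPM; 0.70, 0.59 to 0.80), which encode the iRhom partners of ADAM17, were higher.

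Of 25 measured genes listed as STAT3 targets or acute phase genes, 12 were higher in Igfbp7-/- by at least 1.5 times, 3 were lower and 10 differed by less, with a median log2 ratio of 0.58. Over all genes 21.4% were higher and 23.0% lower, with a median of 0.03. Scaled to Krt8 and Krt18, 1 of 26 measured genes of this list was higher and 20 were lower, with a median of -1.32. Over all genes with that scaling, 0.67% were higher and 95.5% were lower, with a median of -1.89. The serum amyloid genes Saa1 (75.4 and 553.2 RPM; 2.87, interval 2.79 to 2.96), Saa2 (113.3 and 528.9 RPM; 2.22, 2.15 to 2.29) and Saa3 (84.3 and 381.2 RPM; 2.18, 2.09 to 2.26), and Lrg1, which encodes an acute phase glycoprotein (13.9 and 66.8 RPM; 2.25, 2.06 to 2.47), had the largest differences. Saa1 and Saa2 are close copies, so reads may have been split between them. The transcription factor genes Myc, Cebpb, Cebpd and Junb were among the 12, as were Igfbp5, Bcl2l1, Lcn2 and Lbp. The 3 lower genes were Icam1, Timp1 and Fgg, of which Icam1, an adhesion molecule of endothelium and leukocytes, had 1778 RPM in WT and 747.6 RPM in Igfbp7-/- (-1.25, -1.28 to -1.22). The acute phase genes of the list did not all go one way, since Fgg was lower (9.70 and 6.05 RPM, -0.67), Hp was within 1.5 times (11.3 and 8.80 RPM, -0.36), and Fga and Fgb were not measured. Igfbp5, Bcl2l1, Saa2, Saa3 and Cd14 (which was within 1.5 times) also stand in the involution gene list that the study set beside these libraries. The whole list used here was chosen with earlier results of these data known. Neither its counts nor the directions of its genes are therefore independent evidence. Luminal cells are a source of several of these proteins, and the luminal list had a summed level of 1449 RPM in WT and 3287 RPM in Igfbp7-/-, with 3 of 6 genes higher, none lower and none at 0 reads, and the part of that shift was not tested.

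**Figure D4:**
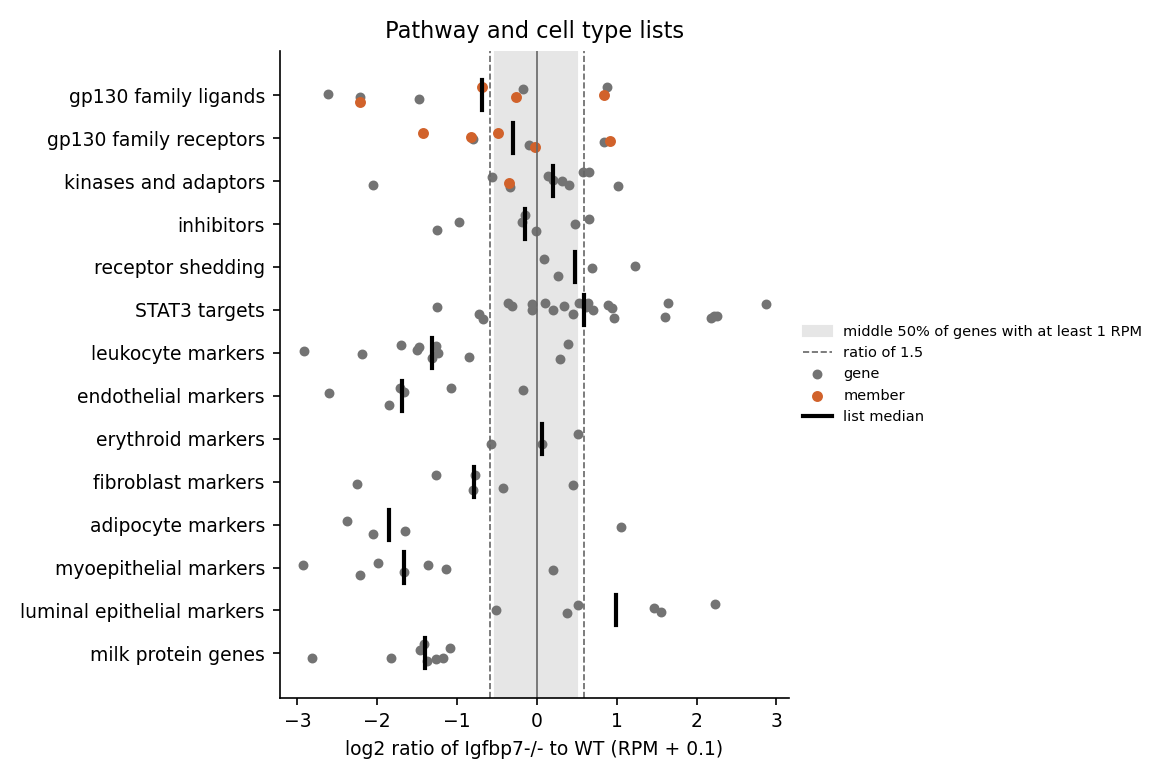
Log2 ratio of Igfbp7-/- to WT for every listed gene that was measured, by pathway list (upper 6 lists) and cell type list (lower 8). Members are in colour, black bars are list medians, dashed lines mark a ratio of 1.5 and the grey band the middle 50% of all measured genes. The median of the STAT3 target list is 0.58, and those of the leukocyte, endothelial and myoepithelial lists are -1.31, -1.69 and -1.67.

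The directions of the members depended on the scaling to an unequal degree. The RPM total of the authors includes reads outside the listed genes, and 82.3% of the WT reads and 72.3% of the Igfbp7-/- reads lay on listed genes. Scaled to the reads on listed genes, the median log2 ratio of all genes was 0.23, 62.7% of all genes past 1.5 times were higher instead of 48.2%, and Osm no longer passed 1.5 times. Il6, Osmr and Il11ra1 stayed lower and Lif and Il6ra stayed higher with that scaling, with TMM factors and with size factors. Scaled to the summed reads of the luminal keratins Krt8 and Krt18, which were higher in Igfbp7-/- themselves, the median of all genes was -1.89, 0.693% of all genes past 1.5 times were higher, and all 10 members were lower by at least 1.5 times, Lif and Il6ra included. Relative to that median, Lif was at 0.81, Il6ra at 0.88 and Il6 at -2.25.

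**Figure D5:**
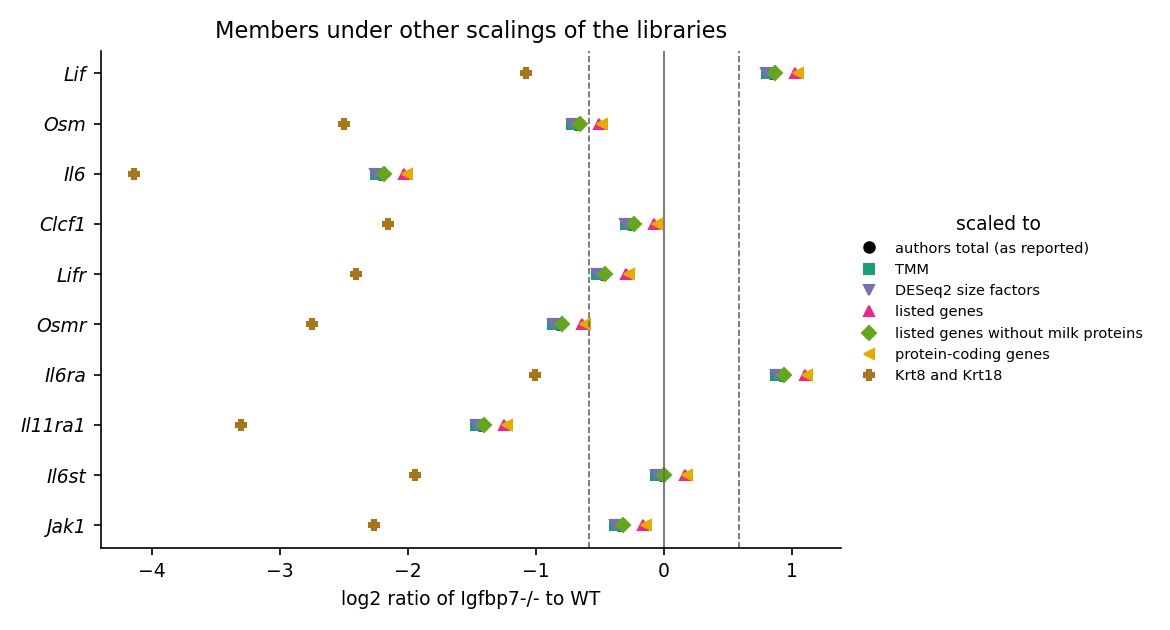
Log2 ratio of Igfbp7-/- to WT of the 10 members under 7 scalings of the libraries, 1 symbol each, with dashed lines at a ratio of 1.5. Scalings other than that to Krt8 and Krt18 keep Il6 between -2.25 and -2.01 and Lif between 0.80 and 1.05, and the scaling to Krt8 and Krt18 moves every member to the left, Il6 to -4.13.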

How the data were processed

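Poly(A) RNA of lineage-depleted MECs was sequenced on a SOLiD instrument, 1 library per genotype. Per the labels, the submitters' processing notes name Bowtie 0.12.3, SAMtools 0.1.15 and the build mm9. The methods name a human build, although the rows are mouse genes. The gene annotation and the treatment of reads with several matches are not given in the sources used here. The authors deposited for each of 25860 rows a raw read count, its value relative to the library total of mapped reads (RPM) and the RPM per kilobase (RPKM, absent for 733 rows). The 50 rows without a symbol held 0.041% of the WT and 0.048% of the Igfbp7-/- reads and were left out.

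Ratios, the 1.5-times rule and intervals were computed with Python 3.11.15 and scipy 1.17.1 and tested on simulated data. Intervals used counts divided by 2, since 75.8% and 74.1% of counts from 1 to 20 were even. Alternative scalings used edgeR 4.0.16 (TMM) and DESeq2 1.42.0 (size factors); with 1 library per group, neither gave a test. Gene positions came from the GENCODE annotation of NCBIM37. The members and lists were chosen with earlier results of these data known. Named genes were all members, Igfbp7, Stat3, Socs3, in each pathway list the 4 genes with at least 10 RPM that differed most, and the leading 2 markers of a list where used. Other genes were named after their values were seen. Some listed genes are not reported here by name.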

Additional observations from a re-analysis of the deposited data

How the results depend on the processing

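Of 11 alternatives, 10 were planned and 1, scaling to the reads on protein-coding genes, was chosen after seeing the data. Of 151 values, 117 stayed within 1.5 times (counts) or within the counting interval (ratios), 32 moved and 2 reversed. Of the members, 2 were higher and 4 lower as reported. With the minimum raised to 10 RPM 2 were lower, because fewer genes were kept; with a ratio threshold of 2, 0 were higher and 2 lower; scaled to Krt8 and Krt18, 0 were higher and 10 lower. Under that scaling Lif and Il6ra reversed, to -1.08 and -1.003, since both keratins were higher in Igfbp7-/-. Of the other pathway genes, 19 were higher and 10 lower as reported; 3 were lower with the 10 RPM minimum, 8 higher and 6 lower with the threshold of 2, and 1 higher and 50 lower with the keratin scaling. Over all genes, 3006 were higher and 3231 lower as reported, against 4741 and 5279 with no minimum, 1696 and 1672 with the 10 RPM minimum, 1352 and 1936 with the threshold of 2, and 99 and 14187 with the keratin scaling. Osm lost its call with a pseudocount of 1 RPM, the threshold of 2, and scaling to listed or protein-coding genes; Il6 and Il11ra1 kept theirs under every alternative in which they were measured. No replicate could be left out, and no paired analysis was possible because each genotype had 1 library. Depth limited Osm, Clcf1 and Il11ra1, which had under 300 reads each.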

Other observations

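The members include neighbouring genes that encode related proteins. On chromosome 11 of NCBIM37, Osm (4136423 to 4141029) and Lif (4157560 to 4172517) lie on the plus strand 16530 bases apart with no annotated gene between them. Lif was higher in Igfbp7-/- by 0.84 on the log2 scale and Osm had -0.68, with an interval that included no difference. On chromosome 15, Osmr and Lifr lie 255245 bases apart, on opposite strands and with no annotated gene between them, and both had values below 0, -0.83 and -0.48. Within a library, Osmr had 5.26 times the RPKM of Lifr in WT (95% interval 5.06 to 5.47) and 4.15 times in Igfbp7-/- (3.95 to 4.35). Whether these genes share control was not tested.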
